A study of Mus musculus with 6 samples.

Results

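The genes described here encode the subunits of heterotrimeric G proteins and the regulators of G protein signalling (RGS proteins). They were chosen by gene name alone: GNAS and the other numbered or lettered GNA names, GNB1 to GNB5, the GNG names, and RGS followed by a number. This gave 54 of the 48321 gene names in the deposited table, namely 16 alpha, 5 beta, 12 gamma and 21 RGS genes. The RNA came from isolated pancreatic islets of C57BL6 mice titled WT, 3 samples on normal chow and 3 on a high-fat diet. In the latter, fat supplied 60% of calories, the diet lasted 4 months and it began at 3 months of age. For the chow samples neither age nor time on the diet was given, so whether the diets were matched for age is not known. Nothing in the labels ties the samples to separate animals, and each p-value reflects only how far these samples scatter, which may be technical. Values are in CPM, reads of a gene scaled to a library total, but the summed CPM of the columns was unequal. The sum was lowest in chow replicate 3 and highest in high-fat replicate 1. That of chow replicate 1 lay between those of high-fat replicates 2 and 3. The part of these unequal sums in the diet differences was not tested separately. The column of chow replicate 2 was the mean of chow replicates 1 and 3 in 48321 of 48321 rows. It was left out, so n = 2 for chow and n = 3 for high-fat.

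A heterotrimeric G protein couples a membrane receptor to enzymes and channels inside the cell. The receptor makes the alpha subunit exchange GDP for GTP, after which alpha and the beta-gamma pair act on separate effectors until alpha hydrolyses its GTP. RGS proteins speed up that hydrolysis. In beta cells, Gs-coupled incretin receptors raise cyclic AMP and insulin release, adrenergic and somatostatin receptors oppose them through Gi/o, and muscarinic and fatty acid receptors act through Gq.

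The receptor reads the end of the alpha subunit, so its last 10 codons before the stop are shown. They are given for the alpha members with a diet difference and for Gnai2, Gnai3 and Gnao1. They were read from the principal GENCODE M21 transcripts on GRCm38, on the coding strand, 5′ to 3′. Capitals mark the codon 4 from the end, where pertussis toxin modifies a cysteine in Gi/o proteins.
Gnas (Gs, chr2:174346356-174346385, + strand): cgcatgcatctccgccaaTACgagctgctc
Gnai1 (Gi, chr5:18267022-18267051, - strand): aagaataacctaaaagacTGTggtctcttc
Gnai2 (Gi, chr9:107615638-107615667, - strand): aagaacaacctgaaggacTGTggcctcttc
Gnai3 (Gi, chr3:108109425-108109454, - strand): aaaaacaacttaaaggaaTGTgggctttat
Gnao1 (Go, chr8:93967023-93967052, + strand): gccaacaatctccggggcTGCggcttgtac
Gnaz (Gz, chr10:75015180-75015209, + strand): cagaacaatctcaagtacATCggcctttgc
Gna12 (G12, chr5:140760552-140760581, - strand): caggagaacctgaaagacATCatgctgcag
Gnai1, Gnai2, Gnai3 and Gnao1 carry a cysteine codon (TGT or TGC) at that place. Gnaz, although grouped with Gi/o, carries ATC there, an isoleucine codon, as Gna12 does.

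Gamma subunits end in a 4-codon box whose first codon encodes the cysteine that receives the lipid anchor. The box is in capitals for the 2 gamma genes that differed by diet and the 2 of highest level per length.
Gng5 (chr3:146503353-146503382, + strand): ttcagaccccagaaagtcTGCTCCTTTTTG
Gng3 (chr19:8838146-8838175, - strand): cgggagaagaagttcttcTGTGCGCTCCTC
Gng12 (chr6:67017557-67017586, + strand): ttcaaggataagaagaccTGCATCATCTTA
Gng4 (chr13:13825343-13825372, + strand): cgggagaagaagttcttcTGCACCATCCTC
The Gng3 and Gng4 stretches share every lower-case letter, the part that precedes the box. All 4 boxes open with a cysteine codon.

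The libraries implied 18.8 to 35.1 M reads, at which 3 reads were worth 0.0856 to 0.16 CPM, a floor that covers counting error only. All 12 beta-cell markers had a mean above 0.5 CPM, with a summed level of 58443 and 80985 CPM on chow and 89291, 97117 and 89096 CPM on high-fat. Of these, 6 were higher and 0 lower, and 2 of 8 alpha-cell and 2 of 5 delta-cell markers were higher with 0 lower. Of all genes tested, 14.9% were higher. The alpha-cell sum differed widely between the chow libraries, 10712.5 and 2612 CPM, against 11674 to 13387 CPM on high-fat. The 2 markers of PP cells summed to 1508 and 4260 CPM on chow and 1635 to 1801.5 CPM on high-fat, overlapping, with 0 higher and 0 lower. The beta-, alpha- and delta-cell counts went in the direction of Gnas, Gnaz and Gna12. The part of endocrine markers in those differences was not tested. The 24 acinar (exocrine) markers summed to 225626 and 69952 CPM on chow and to 110997, 13022 and 40586.5 CPM on high-fat. The diets overlapped in this sum, and 1 of the markers was higher and 1 lower. Summed levels of endothelial markers were 552 and 645 CPM on chow against 422 to 526 CPM on high-fat, and those of fibroblast markers 216 and 105 CPM against 28.2 to 59.4 CPM. The summed level of 5 structured RNAs was at most 15.999 CPM on chow and at least 20791 CPM on high-fat, so diet and the type of library cannot be told apart. In bulk islets, fewer cells of a type and less RNA per cell cannot be told apart either.

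Of the 54 members, 43 had a mean of at least 0.5 CPM and were tested, all within a fit across 16939 genes (limma on log2(CPM + 1), Benjamini-Hochberg adjusted p below 0.05). Gnas, Gnaz and Gna12 were higher on the high-fat diet, 3 of 43 (6.98%) against 14.9% of all genes tested. Gnai1, Gng3 and Gng5 were lower, also 3 of 43, against 8.78% of all genes. The libraries of the diets did not overlap for 20 of the 43 members (46.5%), against 55.4% of all genes. The median log2 difference of the tested members was -0.01, with 21 above and 22 below zero, and that of all genes 0.05. By these shares the members stood out from the rest of the transcriptome in neither direction. By role, 4 of 14 tested alpha genes, 2 of 10 gamma genes, 0 of 4 beta genes and 0 of 15 RGS genes passed. The limma fit gave an unadjusted p under 0.05 to 12 members, among them 1 beta gene (Gnb1) and 1 RGS gene (Rgs2).

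**Figure D1:**
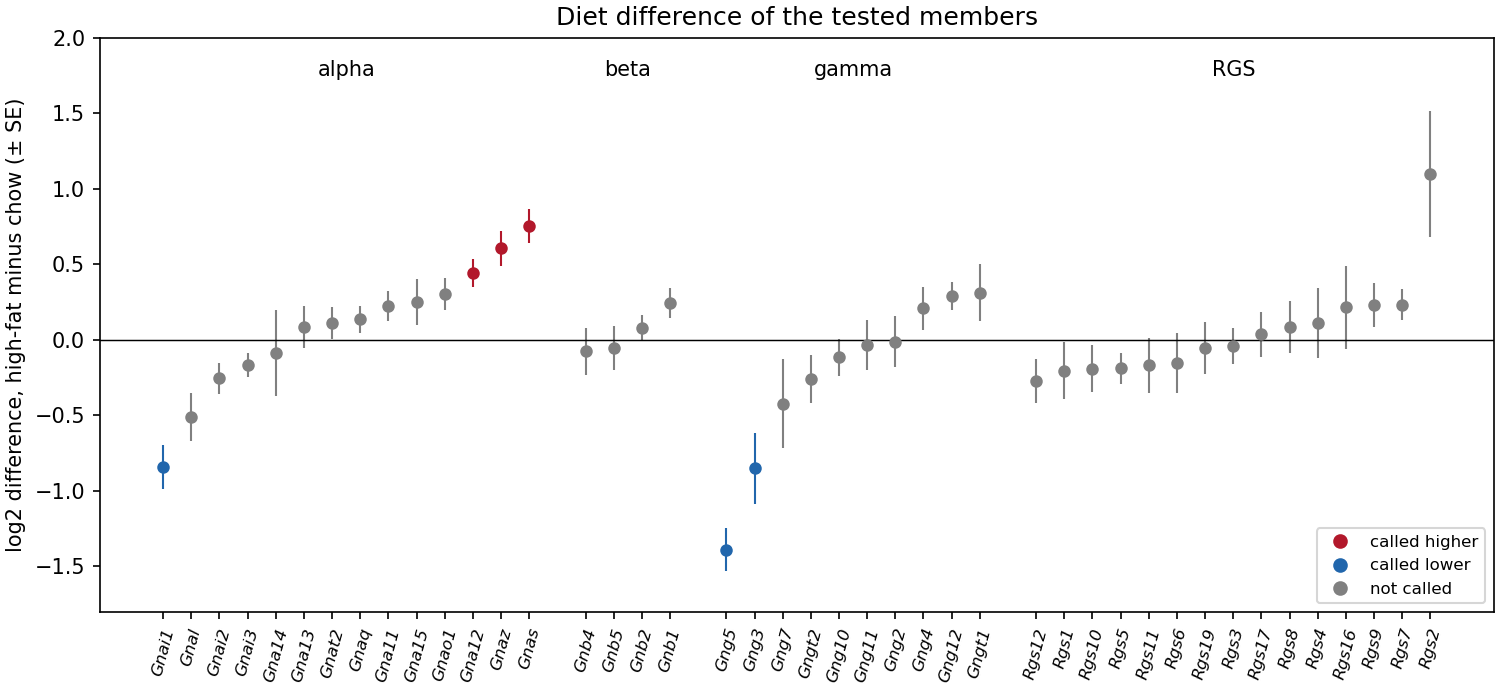
Log2 difference (high-fat minus chow) of log2(CPM + 1) with its standard error for the 43 tested members, ordered within alpha, beta, gamma and RGS genes. Red marks members called higher, blue those called lower and grey those not called; Gng5 has the lowest value, -1.39, and Rgs2 the highest, 1.10, with the longest error bar.

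The 11 members under the filter were Gnat1, Gnat3, Gnb3, Gng8, Gng13, Rgs13, Rgs14, Rgs18, Rgs20, Rgs21 and Rgs22. Their means lay between 0.0462 and 0.426 CPM and no library exceeded 0.633 CPM. In 10 of the 11, at least 1 library was at or below the floor of 3 reads, and the depth behind any diet difference was low. Rgs20 was the exception, above the floor in all 5 libraries. Gnat1 and Gnat3 are the rod and taste alpha subunits and Gnb3 the cone beta subunit.

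Among the Gs alpha genes, Gnas, which encodes the stimulatory subunit that activates adenylyl cyclase, was the most abundant alpha row per length of the longest transcript (120 CPM per kb, against 101 for Gnai2), whereas per kb of all exons Gnai2 led (59.0 against 42.5). Chow replicates 1 and 3 held 329 and 343 CPM, and high-fat replicates 1, 2 and 3 held 570, 577 and 556 CPM, the order used for all values by library. Every high-fat library lay above both chow libraries, and each diet was tight. The log2 difference was 0.75 ± 0.11 (SE; limma adjusted p = 0.00567). Gnal, the olfactory Gs relative, was far lower in level, at 5.86 and 5.70 CPM on chow and 3.12, 4.41 and 3.85 CPM on high-fat. Its difference of -0.51 ± 0.16 had an adjusted p of 0.0591 in limma.

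The Gnas row shares its place in the genome with another row. On GRCm38 Gnas spans chr2:174284320-174346744 on the + strand, and the gene model Gm20721 spans chr2:174330319-174346712 on the - strand. Of the 1484 exon bases of Gm20721, 1469 (99.0%) lie on exon bases of Gnas. The printed Gnas end lies inside this span. Gm20721 stood at 436 and 457 CPM on chow and at 368, 404 and 405 CPM on high-fat, above Gnas on chow and below it on high-fat. Its own log2 difference was -0.19 ± 0.12 (limma adjusted p = 0.277).

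Whether the reads were counted by strand is not given in the sources used here, so reads of the 2 genes cannot be told apart. The Gnas row held 43.0% and 42.9% of the reads of the pair on chow and 60.7%, 58.8% and 57.8% on high-fat. The sum of both rows was 765 and 799 CPM on chow and 938, 981 and 961 CPM on high-fat, or 782 ± 24.1 (SD, n = 2) and 960 ± 21.6 (SD, n = 3). These sums did not overlap, with an exact two-sided permutation p of 0.2, the smallest that 2 against 3 libraries can give. Fitted with the reads of overlapping rows added, the Gnas difference was 0.29 (limma adjusted p = 0.204) and was no longer called. Adding a row of like level and little diet difference shrinks a log2 difference however the reads were divided. This fit therefore cannot decide how they were divided. Another antisense transcript of the locus, Nespas, was near the floor at 0.291 to 1.596 CPM.

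**Figure D2:**
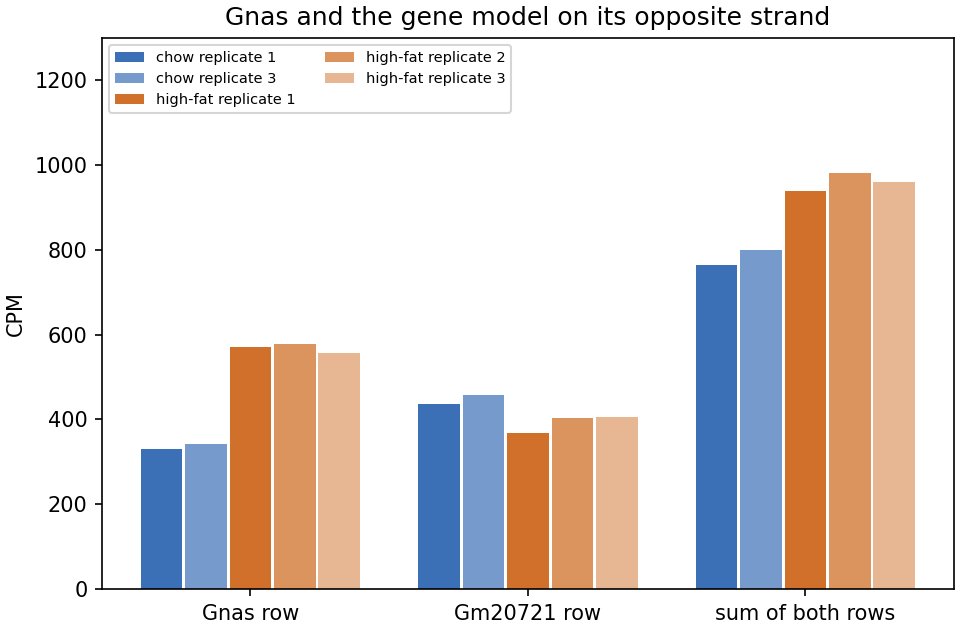
Bars give the CPM of the Gnas row, the Gm20721 row and their sum in the 2 chow (blue) and 3 high-fat (orange) libraries, on an axis starting at 0. The Gnas bars rise from 329 and 343 to 556 to 577 CPM, the Gm20721 bars are lower on high-fat, and the summed bars differ by less than the Gnas bars do.

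Of the Gi/o alpha genes 1 was called higher, Gnaz, and 1 lower, Gnai1. Gnaz, whose product Gz inhibits adenylyl cyclase, hydrolyses GTP slowly and resists pertussis toxin, was at 43.1 and 48.9 CPM on chow and at 62.5, 78.3 and 71.1 CPM on high-fat. The 3 high-fat libraries were all above the chow libraries. Its difference was 0.61 ± 0.11 (limma adjusted p = 0.0126). Without chow replicate 1 it was 0.52, with an adjusted p of 0.0555.

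Gnai1, an inhibitory subunit also widely expressed in the nervous system, went the other way. It was at 32.8 and 27.0 CPM on chow and at 19.0, 13.9 and 15.9 CPM on high-fat, with no overlap. The difference was -0.84 ± 0.15 (limma adjusted p = 0.00935). Its paralogs Gnai2 and Gnai3 were not called. Gnai2, the Gi subunit of highest level per length, was at 237 and 256 CPM on chow and 196, 202 and 223 CPM on high-fat (-0.25 ± 0.10, adjusted p = 0.117). Gnai3 was at 74.8 and 68.0 against 64.2, 62.4 and 63.5 CPM (-0.17 ± 0.08, adjusted p = 0.167). Both were below chow in every high-fat library. Gnao1, encoding Go, was at 144 and 163 CPM on chow and at 176, 189 and 204 CPM on high-fat, above chow in every library, but did not pass (0.31 ± 0.11, limma adjusted p = 0.079).

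Within a library these genes can be set against each other without any scaling between libraries. Gnaz made up 8.10% and 8.70% of the summed CPM of Gnai1, Gnai2, Gnai3, Gnao1 and Gnaz on chow, and 12.1%, 14.4% and 12.3% on high-fat. Gnao1 made up 27.0% and 28.9% on chow and 33.9%, 34.7% and 35.3% on high-fat. The share of Gnai2 was correspondingly smaller, 44.7% and 45.5% on chow and 37.9%, 37.0% and 38.6% on high-fat. Gnai1 was 9.51% and 7.69% of the 3 Gnai genes on chow, and 6.79%, 5.02% and 5.24% on high-fat. The Gi/o row mixture therefore held more Gnaz and Gnao1 and less Gnai2 on the high-fat diet, counted in reads and not per length. These shares, like the other ratios given here, were chosen after their values were seen, and for each of the 11 computed the exact two-sided permutation p was 0.2, also after adjustment, the smallest possible.

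Markers of several other cell types, though not of all, were lower along with Gnai1. Of 12 Schwann cell and neuronal markers, 7 were lower and 1 was higher, and their sum was 178 and 202 CPM on chow and 126, 140 and 134 CPM on high-fat. Of 14 endothelial markers 4 were lower, of 11 pericyte and smooth muscle markers 3, and of 9 fibroblast markers 6, with 0 higher in each list. Of 12 ductal markers 3 were lower and 1 higher. Of 13 macrophage markers 2 were lower and 1 higher, and of 5 tested lymphocyte markers 1 and 1. The macrophage and lymphocyte sums overlapped between diets. Of all genes tested, 8.78% were lower and 14.9% higher. None of the markers in these lists was at 0 in all 5 libraries. Their part in the Gnai1, Gng3 and Gng5 differences was not tested.

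The Gi/o relatives of sensory cells were minor. Gnat2, the cone transducin, was at 11.4 and 10.7 CPM on chow and 12.8, 12.01 and 11.2 CPM on high-fat, with overlapping diets (0.11 ± 0.11, limma adjusted p = 0.485).

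The Gq alpha genes, which activate phospholipase C-beta, did not pass the test. Gnaq was at 92.2 and 101 CPM on chow and at 106, 102 and 111 CPM on high-fat (0.13 ± 0.09, limma adjusted p = 0.293). Gna11 was at 73.0 and 87.7 against 94.3, 91.2 and 95.7 CPM (0.23 ± 0.10, adjusted p = 0.139). In both, the lowest high-fat library lay just above the highest chow library. Gna14 and Gna15 were near the filter, at 1.30 to 3.03 and 0.593 to 1.08 CPM.

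Of the G12 genes, whose products act on the actin cytoskeleton, Gna12 rose. It was at 33.1 and 34.9 CPM on chow and at 45.2, 50.6 and 44.2 CPM on high-fat, without overlap. The difference was 0.44 ± 0.09 (limma adjusted p = 0.0158), and the adjusted p was 0.058 when chow replicate 1 was left out and 0.0587 when high-fat replicate 2 was. With library sizes computed without acinar and insulin genes its difference turned to -0.007. Its partner Gna13 was at 46.3 and 64.8 CPM on chow and at 55.8, 57.7 and 61.3 CPM on high-fat, where the chow libraries enclosed the high-fat ones (0.09 ± 0.14, adjusted p = 0.683).

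**Figure D3:**
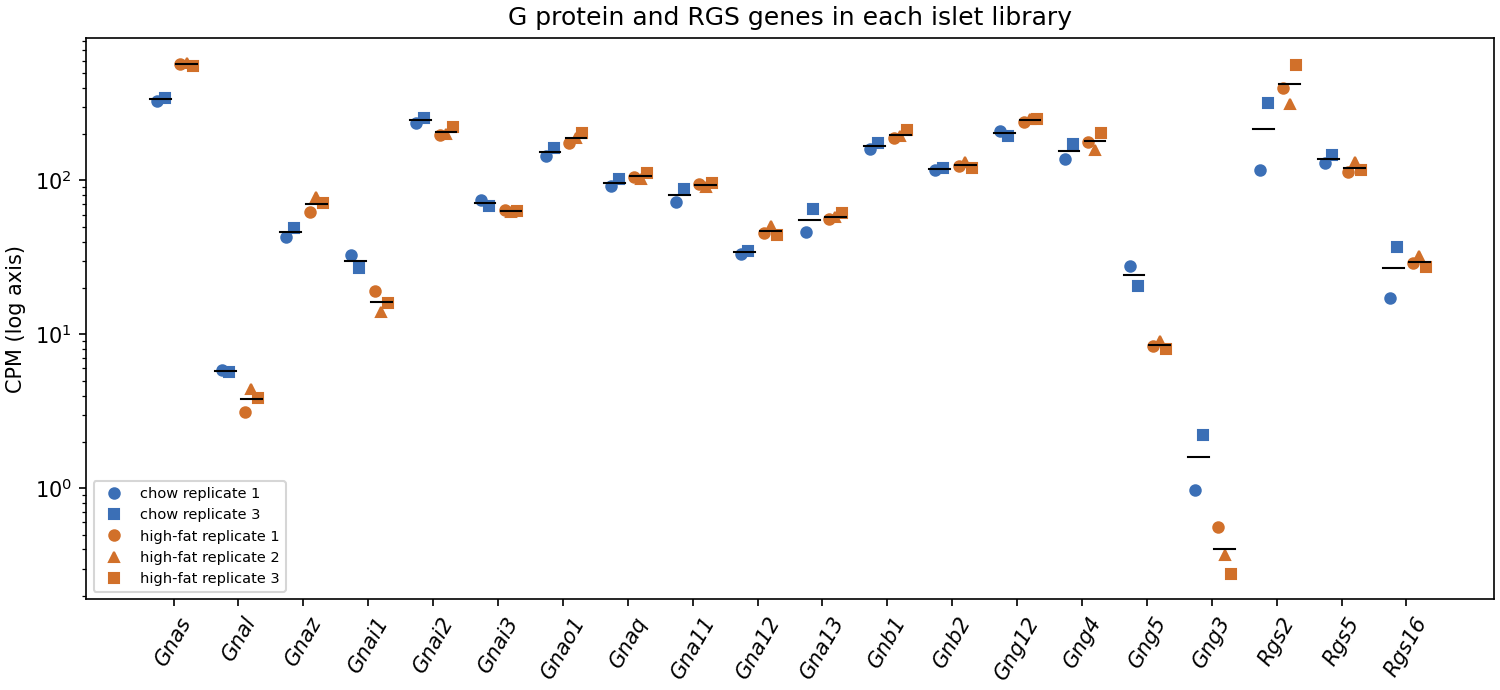
CPM on a log axis for 20 members in each of the 2 chow (blue) and 3 high-fat (orange) libraries, with black bars at the mean of each diet. The points of Gng5 and Gnai1 lie lower on high-fat, those of Gnas, Gnaz and Gna12 higher, and chow replicate 1 stands apart for Rgs2 at 116 CPM.

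Beta subunits form the propeller that binds gamma. Gnb1 and Gnb2 led this class at 59.1 and 65.8 CPM per kb of longest transcript. Their order turned around per kb of all exons, at 43.6 and 36.0. Gnb2 was at 116 and 121 CPM on chow and 124, 132 and 120 CPM on high-fat, overlapping (0.08 ± 0.08, limma adjusted p = 0.531). Gnb1 was at 160 and 174 against 189, 194 and 212 CPM, without overlap but not called (0.24 ± 0.10, adjusted p = 0.114). Gnb4 and Gnb5 were minor, at 6.77 to 8.97 and 5.49 to 7.06 CPM. Gnb5 is the dedicated partner of the R7 family of RGS proteins.

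Among the gamma genes was the member with the smallest adjusted p, Gng5, a broadly expressed gamma subunit. It was at 27.6 and 20.7 CPM on chow, and at 8.40, 9.12 and 8.05 CPM on high-fat. The highest high-fat library was below the lower chow library by more than the range within either diet. The log2 difference was -1.39 ± 0.14 (limma adjusted p = 0.00117). Gng5 passed under all 19 other settings, from -1.82 to -1.13, with adjusted p from 0.000105 to 0.0132. Adding the rows of overlapping genes left the Gng5 row unchanged (-1.39), so that setting was no separate check of it. As a share of the summed gamma CPM Gng5 was 6.80% and 4.95% on chow and 1.86%, 2.05% and 1.65% on high-fat. Of its 31-base words, 9.39% recur elsewhere among annotated transcripts, so part of its reads could be divided with copies.

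Gng3, a neuronal gamma subunit, was low throughout, at 0.968 and 2.22 CPM on chow and 0.556, 0.369 and 0.278 CPM on high-fat. The diets did not overlap, and chow replicate 3 was well above the rest. Its difference of -0.85 ± 0.24 was called (limma adjusted p = 0.0407) but missed the threshold in 8 other settings, among them without chow replicate 3 (0.138) and without high-fat replicates 1, 2 or 3 (0.0706, 0.109 and 0.117). Of its 31-base words, 22.8% are shared with Bscl2 on the opposite strand. Bscl2 was at 22.2 and 24.8 CPM on chow and at 27.6, 25.6 and 24.6 CPM on high-fat, so its level far exceeded that of Gng3. In the last of those 8 settings, with the Bscl2 row added, the difference turned to 0.07 (adjusted p = 0.652). Most of that sum was the Bscl2 row, so its difference says little about Gng3.

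The gamma genes of highest level did not pass. Gng12 was at 208 and 196 CPM on chow and at 240, 249 and 251 CPM on high-fat, every high-fat library above chow (0.29 ± 0.09, limma adjusted p = 0.0618). Gng4, which is abundant in islet endocrine cells, was at 138 and 172 against 178, 158 and 202 CPM, with overlap (0.21 ± 0.14, adjusted p = 0.316). These 2 genes stood close together at 53.9 and 53.4 CPM per kb of longest transcript, and in the other order, 48.5 and 50.8, per kb of all exons. The other 6 tested gamma genes were each at most 14.3 CPM in any library. Among them Gng7 (2.45 and 4.70 against 2.32, 3.31 and 1.53 CPM) and Gng2 (14.3 and 10.03 against 10.8, 11.6 and 13.5 CPM) overlapped between diets.

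No RGS gene was called with the deposited CPM. The nearest was Rgs2, which restrains Gq signalling and is quickly induced by many stimuli. It was the most abundant RGS gene per length (113 CPM per kb of longest transcript, 93.8 per kb of all exons). Rgs2 was at 116 and 316 CPM on chow and at 398, 312 and 559 CPM on high-fat. Chow replicate 1 was far below all others, and chow replicate 3 overlapped high-fat replicate 2. The difference of 1.10 ± 0.42 missed the threshold (limma adjusted p = 0.0997). Without chow replicate 1 it was 0.38 (adjusted p = 0.443), and without chow replicate 3 it was 1.81 (adjusted p = 0.00934), so a single chow library set its size. Rgs2 made up 28.7% and 47.8% of the summed RGS CPM on chow and 58.3%, 48.3% and 66.2% on high-fat. The 21 immediate early genes summed to 592 and 402 CPM on chow and 343, 348 and 361 CPM on high-fat. That sum was highest in chow replicate 1, where Rgs2 was lowest. Of 19 immediate early genes tested, 2 were higher and 8 lower, beside 14.9% and 8.78% of all genes.

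The other R4 genes, small RGS proteins built around the RGS domain, did not pass either. Rgs5, a gene also known from pericytes, was at 130 and 146 CPM on chow and 114, 131 and 118 CPM on high-fat (-0.19 ± 0.10, limma adjusted p = 0.208). The pericyte markers, among which it was not counted, summed to 107 and 123 CPM on chow and to 71.4, 90.4 and 85.6 CPM on high-fat. Rgs16 was at 17.2 and 36.9 against 29.2, 32.4 and 27.2 CPM (0.22 ± 0.28, adjusted p = 0.598). As for Rgs2, chow replicate 1 was lowest. Rgs4 ranged from 13.6 to 23.5 CPM and Rgs3 from 19.96 to 25.6 CPM, with overlapping diets. Rgs1 and Rgs8 were at most 1.754 CPM.

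The R7 genes, whose products pair with Gnb5, did not pass the test. Rgs11 was highest in reads, at 43.8 and 63.1 CPM on chow and 42.6, 55.8 and 42.7 CPM on high-fat (-0.17 ± 0.18, limma adjusted p = 0.524). Rgs9 was at 22.3 and 18.3 against 20.04, 26.0 and 26.1 CPM (0.23 ± 0.15, adjusted p = 0.286). Rgs7 was at 9.996 and 11.2 against 12.9, 12.5 and 12.6 CPM, above chow in each high-fat library without passing (0.23 ± 0.10, adjusted p = 0.147). Of the R12 genes, Rgs12 was at 6.83 and 8.81 CPM on chow and at 5.82, 6.80 and 6.15 CPM on high-fat (-0.27 ± 0.15, adjusted p = 0.217). The RZ gene Rgs17 was at 10.7 to 14.9 CPM and Rgs19 at 1.63 to 2.39 CPM, with the diets overlapping in both.

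By class, the alpha rows summed to 1126 and 1213 CPM on chow and to 1408, 1444 and 1463 CPM on high-fat. The beta rows gave 291 and 309 against 325, 342 and 344 CPM, and the gamma rows 406 and 418 against 452, 445 and 489 CPM. Each of these 3 sums was higher in all high-fat libraries, with an exact two-sided permutation p of 0.2, the smallest possible, and 0.271 after adjustment over 19 sums. With library sizes computed without acinar and insulin genes the mean difference (high-fat minus chow) turned from 269 to -153 for alpha, from 37.0 to -67.3 for beta, from 49.8 to -93.4 for gamma and from 191 to -13.9 for RGS rows. The summed CPM of the remaining genes set those sizes, so the unequal sums of the libraries entered as well. With upper-quartile scaling the mean difference was 161 for alpha, 10.3 for beta and 12.8 for gamma rows. The RGS rows summed to 406 and 661 CPM on chow and to 682, 647 and 844 CPM on high-fat, which overlapped (exact permutation p = 0.4, adjusted 0.447). The mean alpha sum was 1169.5 CPM on chow and 1438 CPM on high-fat, while the mean of the Gnas row was 336 CPM on chow and 568 CPM on high-fat.

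Other genes of the pathway were taken from 4 fixed lists and read from the same limma fit. Of 7 receptor kinases and arrestins, which switch receptors off, 0 were called, with a median log2 difference of -0.05 (0.05 over all genes). Of 14 tested genes listed as chaperones and non-RGS regulators, 6 were higher and 2 lower (median 0.11), against 14.9% and 8.78% of all genes. The 6 include Tmem132a (6.46 and 10.5 CPM, adjusted p = 0.0140), whose link to G proteins was not checked here. The 2 of smallest p among the higher ones were Rasd2 (mean 5.57 CPM on chow, 12.04 on high-fat, 0.998 ± 0.15, adjusted p = 0.00497) and Rasd1 (8.41 and 19.2 CPM, 1.14 ± 0.20, adjusted p = 0.00875), small Ras-like GTPases that interfere with Gi signalling. The 2 lower ones were Ccdc88a, which encodes the Gi-activating protein girdin (49.6 and 37.7 CPM, -0.39 ± 0.10, adjusted p = 0.0327), and Pdcl3, a phosducin-like chaperone (12.7 and 9.09 CPM, -0.44 ± 0.13, adjusted p = 0.0439). Neither was called when any 1 of the 5 libraries was left out, and 2 to 5 regulators were then higher, the fewest without high-fat replicate 2.

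Effectors had 5 higher and 2 lower of 24 tested (median 0.08), beside the same 14.9% and 8.78% of all genes. Leaving out 1 library gave 2 to 6 higher, with 2 when high-fat replicate 2 or 3 was left out and 3 when chow replicate 1 or high-fat replicate 1 was, and 1 or 2 lower, with 1 when chow replicate 1 or high-fat replicate 2 was left out. Adcy5, an adenylyl cyclase stimulated by Gs and inhibited by Gi, was at 4.12 and 3.81 CPM on chow and at 29.5, 31.3 and 53.0 CPM on high-fat (2.92 ± 0.24, limma adjusted p = 0.000424). Adcy7, a cyclase enhanced by beta-gamma, was at 22.3 and 8.75 against 3.62, 2.23 and 3.23 CPM (-1.92 ± 0.35, adjusted p = 0.0114). These 2 cyclases thus differed in opposite directions, both without overlap. Adcy9 (0.75, adjusted p = 0.0215) and Adcy1 (1.03, adjusted p = 0.0303), named here after their values were seen, were also higher. Adcy7 was the only cyclase called lower. Of the beta-gamma gated potassium channel genes, Kcnj6 rose from a mean of 4.22 to 8.81 CPM (0.92 ± 0.17, adjusted p = 0.0119) and Kcnj5 fell from 1.49 and 1.22 CPM to 0.211, 0.171 and 0.468 CPM (-0.88 ± 0.17, adjusted p = 0.0140).

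Islet receptors had 7 higher and 4 lower of 26 tested (median 0.18), again beside 14.9% and 8.78%. Leaving out any library but chow replicate 3 gave 2 or 3 higher and 2 lower, and leaving out chow replicate 3 gave 7 and 3. Adra2c, a Gi-coupled adrenergic receptor, was at 0.324 and 0.419 CPM on chow and at 4.91, 4.66 and 6.84 CPM on high-fat (2.22 ± 0.19, limma adjusted p = 0.000488). Casr, the calcium-sensing receptor that couples to Gq and Gi, was at 51.6 and 70.6 against 119, 142 and 125 CPM (1.08 ± 0.15, adjusted p = 0.00379). The 2 lower ones of smallest p, Vipr2 and Adcyap1r1, are receptors for VIP and PACAP peptides that act through Gs. Vipr2 was at 2.85 and 2.35 CPM on chow and 1.14, 0.560 and 0.697 CPM on high-fat (-1.01 ± 0.19, adjusted p = 0.0121). Adcyap1r1 was at 6.16 and 9.21 against 3.20, 2.43 and 3.67 CPM (-1.07 ± 0.21, adjusted p = 0.0141). The third receptor of these peptides, Vipr1, named here after its values were seen, was higher, at 43.0 and 53.5 CPM on chow and 68.1, 62.8 and 74.1 CPM on high-fat (0.50 ± 0.12, adjusted p = 0.0260).

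The counts of members depended on how the libraries were scaled. With median-ratio scaling 3 members were higher (12.5% of all genes) and 5 lower (11.1%), the latter with Gnai2 and Gnal added. With upper-quartile scaling 3 were higher (10.5%) and 7 lower (13.3%), with Gnai3 and Rgs5 also added, and the median of all genes moved from 0.05 to -0.05. With the trimmed mean of M values 3 were higher (11.7%) and 4 lower (10.7%). In these scalings Gnas, Gnaz and Gna12 stayed the 3 higher members, and Gnai1, Gng3 and Gng5 stayed among the lower. With a score of the acinar markers as a covariate, Gnas, Gnaz, Gnai1 and Gng5 stayed called, while the limma adjusted p of Gna12 was 0.0924 and that of Gng3 0.101. With no filter on low values, Gnas and Gng5 stayed called, while the adjusted p was 0.0589 for Gnaz, 0.0544 for Gna12, 0.0515 for Gnai1 and 0.149 for Gng3.

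With library sizes computed without acinar and insulin genes, 0 members were higher (4.74% of all genes) and 15 were lower (39.3%), among them the beta genes Gnb2 and Gnb4 and the RGS genes Rgs3, Rgs5, Rgs11 and Rgs12. These sizes were the summed CPM of the remaining genes, so they also took up the unequal sums of the libraries. The median of all genes was then -0.33, a shift of -0.39, against which the members are read. The parts of the 2 in this shift were not separated. The Gna12 difference was 0.33 above that median, where it had been 0.39 above it with the deposited CPM. Gnas (0.29, limma adjusted p = 0.137) and Gnaz (0.15, adjusted p = 0.401) kept their sign but were not called, while Gnai1, Gng3 and Gng5 stayed called lower. The pathway lists shifted in the same way, to 0 higher and 5 lower among kinases and arrestins, 2 and 3 among regulators, 1 and 9 among effectors, and 2 and 9 among receptors.

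**Figure D4:**
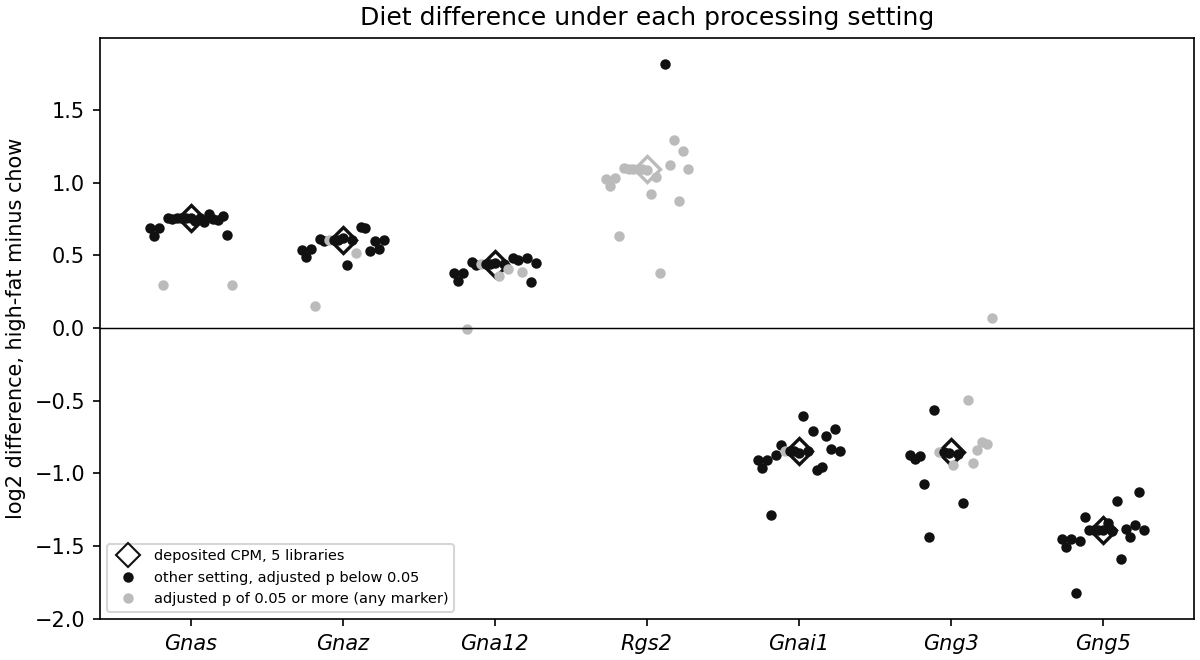
Log2 difference (high-fat minus chow) of 7 members under the deposited scaling (open diamonds) and under the other settings (dots), black where the limma adjusted p was below 0.05 and grey otherwise. All points of Gng5 are black and lie between -1.82 and -1.13, whereas those of Rgs2 spread from 0.38 to 1.81 and are black in 1 setting.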

How the data were processed

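RNA of isolated islets was extracted with Trizol per the labels' protocols. Per the submitters' processing notes, Partek was used. The genome build, aligner, library kit, strand setting and Partek version were, for this series, not given in the sources used here. Values deposited by the authors were read from their steps as CPM plus 1, and 1 was subtracted. By library, 64.5% to 69.9% of the values of at most 20 reads came out whole (within 0.1), so no count model was used. Diets were compared by limma 3.58.1 (R 4.3.3), using log2(CPM + 1) and a variance trend, over genes averaging 0.5 CPM or more. This scale understates changes of low genes. Sums and ratios used exact permutation tests in scipy 1.17.1. Fitting code was tested on simulated data. Annotation and sequences came from GENCODE M21 (GRCm38), which may differ from the authors' annotation. Values in every library are given for called members with an absolute log2 difference of at least 0.5 and for the highest member per length in each role. From each pathway list the 2 genes of smallest p per direction are named. Further members are given with values whether or not they passed. Members, lists and rules were chosen with earlier results of these data known.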

Additional observations from a re-analysis of the deposited data

How the results depend on the processing

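Under 19 other settings, the 3 members called higher with the deposited scaling became 0 with library sizes computed without acinar and insulin genes. They became 1 with no filter on low values, 8 with all 6 columns, and 5 with trends over length and GC content removed. Over all genes, 2524 of 16939 were called higher with the deposited scaling. In those settings the number was 803 of 16939, 1080 of 39352, 4282 of 16939 and 1965 of 13704, in the same order. The 3 called lower became 5 with median-ratio scaling, 7 with upper-quartile scaling and 15 with library sizes without acinar and insulin genes. They became 1 with no filter and 6 with all 6 columns. Over all genes, 1487 were called lower with the deposited scaling, and 1874, 2251, 6663, 573 and 2796 in those settings. Fitting all 6 columns counts the averaged chow column as a separate library, which narrows the spread without new data. Leaving out high-fat replicate 1, 2 or 3 gave 3, 2 and 3 higher, beside 1441, 1167 and 1222 of all genes. Each gave 2 lower, beside 790, 682 and 745 of all genes. Of the fits without 1 library, those without a chow replicate moved the number called higher most. A lone chow library is then assumed to vary like the high-fat ones. Of the 6 called members, 2 changed sign: Gna12 with library sizes without acinar and insulin genes (-0.006986) and Gng3 with the row of an overlapping gene added (0.06934). The latter sum was mostly the row of the overlapping gene, Bscl2. Of the 37 tested members not called, 25 changed sign in at least 1 setting, and of all 43, 16 did with library sizes without acinar and insulin genes. Gng5 was called in all 19, and Gnai1 in all but the one with no filter (limma adjusted p = 0.0515). Adding overlapping rows left the rows of Gng5 and Gnai1 unchanged. Removing length and GC trends, adding overlapping rows and the ratios within a library were chosen after seeing the data. No paired analysis was possible because the replicate numbers only follow deposit order and pair no samples. With 2 chow libraries and deposited values that are not counts, precision is limited, most of all for members near the floor. The causes of these changes were not tested.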
